A study of Rattus norvegicus with 12 samples.

Results

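The genes described here carry the first steps of the PACAP response from the cell surface into the cell: the receptors Adcyap1r1, Vipr1 and Vipr2, the G protein alpha subunits Gnas and Gnaq, the adenylyl cyclases Adcy3, Adcy6 and Adcy9, and the Rap exchange factors Rapgef2 and Rapgef3. They were chosen by name, as a list of 10 symbols, and every probe of the array whose gene name equals a symbol was taken, which gave 19 of 41012 probes and 10 of 33212 gene names. No listed gene was without a probe. PC12 is a cell line from a rat pheochromocytoma, a tumour of adrenal chromaffin cells, and PACAP38 is the 38-residue form of the neuropeptide PACAP. The cells received PACAP38 at 1e-07 M for 5, 10, 15, 30, 60 or 120 min, and each treated group was compared with a control group of PC12 cells of the same time point. RNA from n = 6 was pooled per group before labelling, and a control and a PACAP38 pool were hybridised together on 2 arrays with the dyes Cy3 and Cy5 exchanged, which gave 12 arrays of 2 colours on 3 slides. The dye-exchanged arrays share their pools and count as 1 replicate, so that no test between conditions exists at a single time point, and the fold on each array is given in place of an error.

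PACAP signals through class B G protein-coupled receptors. PAC1, the product of Adcyap1r1, binds PACAP with high affinity, while the receptors VPAC1 and VPAC2, from Vipr1 and Vipr2, bind PACAP and the related peptide VIP about equally well. The receptors couple mainly to Gs, whose alpha subunit comes from Gnas and stimulates adenylyl cyclases to make cyclic AMP, and PAC1 also couples to Gq, from Gnaq, which activates phospholipase C. Cyclic AMP is then read by protein kinase A and by exchange factors for the small GTPase Rap. Rapgef3 encodes Epac1, which binds cyclic AMP directly, and Rapgef2 encodes a Rap exchange factor that has been described as a cyclic AMP sensor of neuronal and endocrine cells. In PC12 cells this pathway is known for driving neurite outgrowth.

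The probe sequences are shown because the results separate probes with a clear signal from probes without one, and they identify the probes behind both sets. They are the sequences of the array files, written 5′ to 3′ in lower case with no part singled out. For some probes only the first 30 of 60 bases are given, and 60 bases for the others. The first group holds probes that were well above background in the control RNA on all 12 arrays, and all of its coordinates are on rat build rn4, as the array files give them. Of the probes with 30 bases shown, the brightest Adcyap1r1 probe lies at chr4:84258357-84258416 on the plus strand, the dimmer Adcyap1r1 probe at chr4:84256626-84256685 on the same strand, and the brightest Adcy6 probe at chr7:137340356-137340415 on the minus strand. Of the probes with 60 bases shown, that for Gnaq lies at chr1:219758699-219758758, that for Adcy3 at chr6:27200301-27200360 and the Adcy9 probe at chr10:11518594-11518653, all on the plus strand. The files pair each probe with a transcript but not with an exon.
Adcyap1r1 A_42_P726223: ggttccaggctcactcgtgggagctggacc
Adcyap1r1 A_44_P827919: tttctgtctgaaggaatccttttgttagtc
Gnaq A_42_P640478: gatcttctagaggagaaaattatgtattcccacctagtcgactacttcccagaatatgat
Adcy3 A_44_P377278: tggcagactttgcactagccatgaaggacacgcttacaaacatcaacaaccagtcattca
Adcy6 A_44_P107300: tggtttcgggcttgggactactttcctggg
Adcy9 A_44_P135944: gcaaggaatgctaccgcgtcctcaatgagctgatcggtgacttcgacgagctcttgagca

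The second group holds probes that were not well above background on most or all arrays. The Vipr1 probe has no position in the array files. One Vipr2 probe lies at chr6:143416188-143416247, and the other is given the interval chr6:143410287-143413208, which is longer than the probe. The second Adcy6 probe is placed at chr7:137339933-137339957, an interval shorter than the probe. The Rapgef2 probe shown lies at chr2:170505642-170505701 on the minus strand, and the Rapgef3 probe is given chr7:136455150-136455922, also on the minus strand.
Vipr1 A_43_P11516: taaacttgtggagttgtcttgctgatgaag
Vipr2 A_42_P745602: tgtggggaacaaatggcctaggtcagaaac
Vipr2 A_44_P274167: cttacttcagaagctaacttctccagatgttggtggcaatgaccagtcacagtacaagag
Adcy6 A_43_P11576: ctttccctatttttcctgggactatttttg
Rapgef2 A_44_P441596: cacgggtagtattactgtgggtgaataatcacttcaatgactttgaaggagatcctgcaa
Rapgef3 A_43_P15424: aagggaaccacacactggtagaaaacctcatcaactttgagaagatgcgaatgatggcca

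In control PC12 cells the pathway was read through 1 receptor, both alpha subunits and all 3 cyclases. The control RNA of 10 probes, from the 6 genes Adcyap1r1, Gnas, Gnaq, Adcy3, Adcy6 and Adcy9, was well above background on every array that gave a value, by the flag of the scanner software. The 3 genes Vipr1, Vipr2 and Rapgef3 had no probe well above background in control RNA on any array, and together with 1 Gnas probe this makes 5 probes. The other 4 probes lay between, with 1 or 2 of 12 arrays, and they include both Rapgef2 probes, so that none of the Rap exchange factors on the list was read steadily. Over the whole array, 35.3% of probes were well above background in control RNA on all 12 arrays and 45.9% on none. The flag says that a spot is brighter than its surroundings, and a probe without it gives only an upper bound on the RNA, not its absence.

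**Figure D1:**
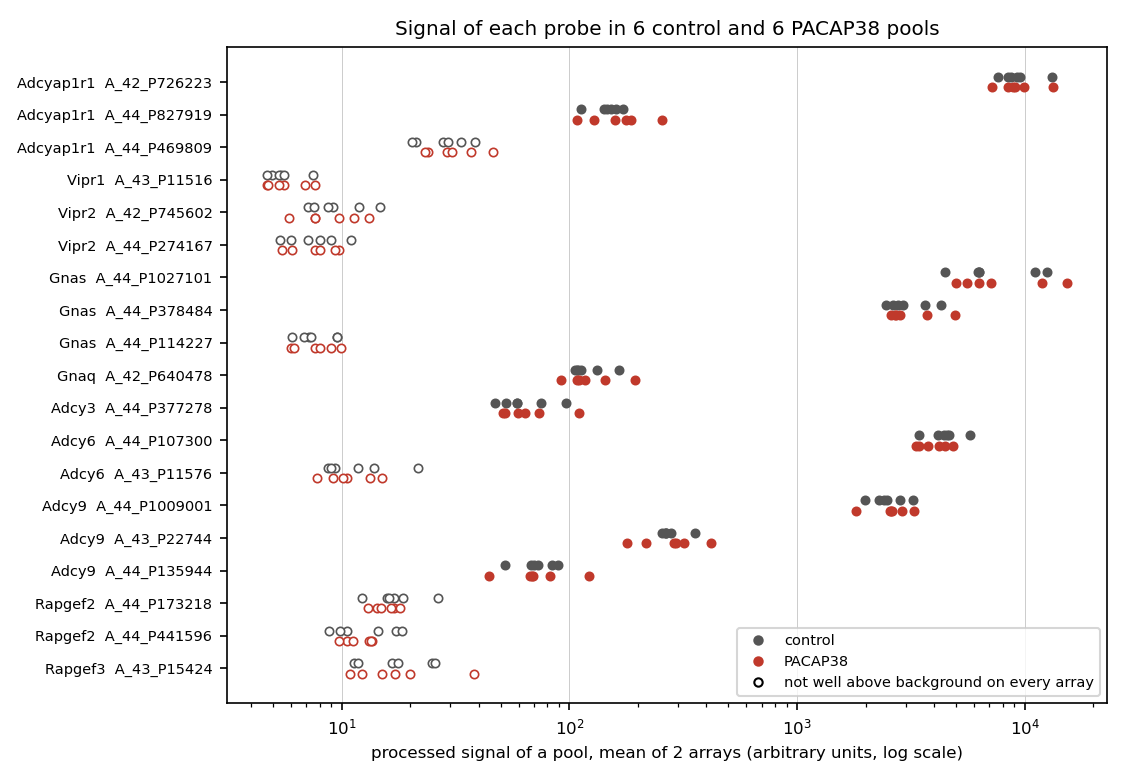
Processed signal (arbitrary units, log scale) of the 19 probes in the 6 control pools (grey) and the 6 PACAP38 pools (red), where each point is 1 pool and filled points were well above background on every array used. The filled rows are the 10 probes of the 6 genes read in every control pool, and signals of different probes cannot be compared with each other.

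The cells carried the RNAs of a chromaffin line. All 9 markers of PC12 cells found on the array, of 10 listed, were well above background in control RNA on all 12 arrays, among them Th, which encodes tyrosine hydroxylase. Of the markers of other cells, 2 of 6 for fibroblasts and 1 of 4 for macrophages met the same condition, while Col3a1, Pdgfrb, Ptprc and Aif1 did so on no array. No marker of any of these lists was counted as higher or lower by the fold and p-value rule of the next comparison, but at 120 min Th stood at 1.81-fold, Cd68 of the macrophage list at 1.94-fold and Pdgfra of the fibroblast list at 0.457-fold of control. The part of these shifts in the 120 min values that follow was not tested, and in pooled RNA a change in the number of cells of a type cannot be told apart from a change in the RNA per cell. Spots well above background made up 38.4 to 49.6% of an array for control RNA and 39.8 to 48.9% for PACAP38 RNA, with 0 saturated.

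The question for PACAP38 over control was whether the cells changed the RNA of the machinery that receives the peptide. To be counted, a probe needed on each of the 2 arrays a fold of 2 or more, or on each a fold of 0.5 or less, and on each a spot p-value below 0.01 from the scanner software. No probe of the 10 genes was counted at any of the 6 time points, that is 0 of 19, while 3.9% of all probes were counted at 1 or more time points. At 120 min, when most probes were counted, 1.95% of all probes were counted as higher and 1.53% as lower. The shares counted as higher and lower were 0.871% and 0.376% at 60 min. At 30 min they were 0.249% and 0.102%, and the 15 min arrays had 0.0902% and 0.0268%. At 10 min 0.0659% were higher and 0% lower, and the 5 min share was 0% in both directions. With 19 probes and shares this small, 0 counted probes does not set these genes apart from the array as a whole.

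The well measured probes lay about as close to their controls as the array did as a whole. Their 60 folds, 10 probes at 6 time points, lay between 0.596 and 1.59, and 58 of them were within 1.5-fold of the control. Of all values of probes well above background in control RNA on every array, 94.3% were within 1.5-fold. At 120 min this held for 8 of the 10 probes and for 77.1% of the array. Both exceptions were at 120 min, a higher value for the dimmer Adcyap1r1 probe and a lower value for the brightest Adcy6 probe. From 5 to 120 min the median log2 fold of the 10 probes was 0.02, 0.09, -0.07, -0.01, 0.07 and 0.22. Over all probes well above background in control RNA on every array, the median at 120 min was -0.04. The 120 min median of the 10 probes depended on the scaling, with 0.09 under normexp and loess and -0.02 under normexp and median centring.

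**Figure D2:**
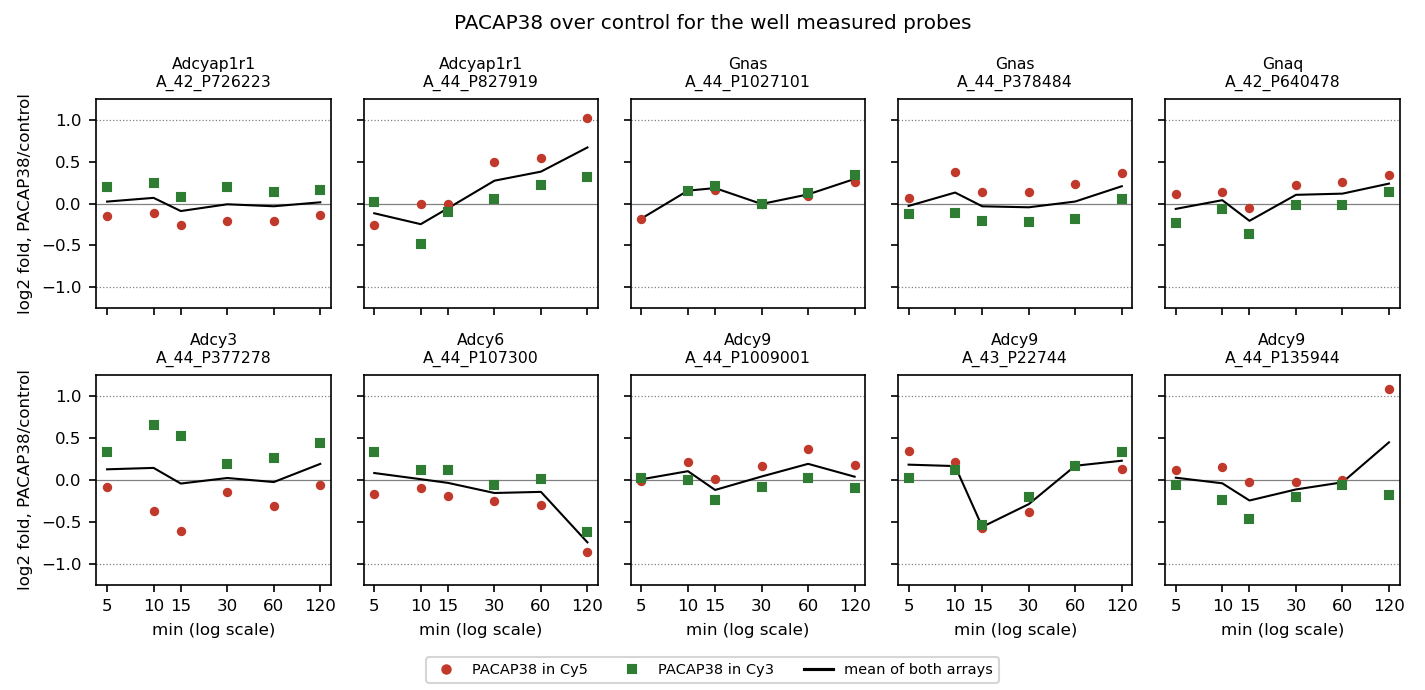
Log2 fold of PACAP38 over control against time (min, log scale) for the 10 well measured probes, with the array carrying PACAP38 in Cy5 as red circles, the dye-exchanged array as green squares and the mean of both as a line; dotted lines mark 2-fold. The means lie between 0.596-fold and 1.59-fold, with Adcy6 A_44_P107300 lowest and Adcyap1r1 A_44_P827919 highest, both at 120 min, and Gnas A_44_P1027101 has 1 array at 5 and at 10 min.

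Over the whole array limma tested the slope of the log2 fold on log2 time and its mean over the 6 time points. The 20265 probes tested had, for 1 or more time points, a channel well above background on each array. Of the 19 probes, 13 entered. None passed an adjusted p of 0.05 for the slope, against 0.725% of all probes tested, and 3 had an unadjusted p below 0.05. None passed for the mean, against 0% of all probes, and 0 had an unadjusted p below 0.05. With the slide as a block, 0 of the 13 passed for either value, against 0% of all probes for the slope and 0.622% for the mean. On simulated data of this size the slope test recovered 79% of probes made to change by 0.5 on the log2 scale per doubling of time, and the test of the mean recovered 56.5% of probes shifted by 0.5, so smaller changes could be missed. As a stated alternative, a slope on time in minutes, which gives the 60 and 120 min values more weight, called 26.3% of all probes and 2 of the 13, 1 higher and 1 lower.

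Among the receptors, Adcyap1r1 gave the steadiest reading. On its brightest probe, paired with transcript NM_001270579, the signal in the control pools at 5 to 120 min was 8707, 9501, 7629, 8488, 9250 and 13152, and in the PACAP38 pools 8847, 9957, 7169, 8435, 9043 and 13285. The folds of PACAP38 over control were 1.02, 1.05, 0.940, 0.994, 0.978 and 1.01. The pools of both conditions overlapped over their whole range, and the 120 min pools were the brightest in both. The mean fold was 0.997, with an SD of 0.05 on the log2 scale over 6 time points, and the slope was -0.01 ± 0.03 (SE) with a limma adjusted p of 0.892. The fold of this probe differed with the dye. It was between 0.836 and 0.925 with PACAP38 in Cy5 and between 1.06 and 1.19 on the exchanged array, and both arrays pointed in opposite directions at 6 of 6 time points.

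The dimmer Adcyap1r1 probe A_44_P827919 gave another course. Its control signals at 5 to 120 min were 172, 152, 113, 146, 143 and 160, and its PACAP38 signals 159, 128, 109, 177, 186 and 255. The PACAP38 pool was the lower of the pair at 5, 10 and 15 min and the higher at 30, 60 and 120 min, and the 120 min PACAP38 pool was above all control pools. The folds were 0.922, 0.843, 0.961, 1.21, 1.30 and 1.59. At 120 min the arrays gave 2.04 where Cy5 labelled the PACAP38 pool and 1.24 where Cy3 did, so the probe was over 2-fold on 1 array only. Its slope was 0.19 ± 0.04 (SE) per doubling of time, with a limma adjusted p of 0.069. The slope in minutes was 0.44 ± 0.08 (SE) on the log2 scale per hour, with a limma adjusted p of 0.0144. With the slide as a block the slope on log2 time was 0.16 ± 0.14 with an adjusted p of 0.895. That fit called 0 of the 20265 probes, so its adjusted p decides nothing about this probe. On the slide that held both late time points the fold was 1.30 at 60 min and 1.59 at 120 min. With normexp background correction and loess in place of the processed signals, the 120 min fold was 1.19.

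Both Adcyap1r1 probes above are paired with the same transcript and lie on the same strand of chromosome 4, and their courses differed at 120 min, 1.01 against 1.59. A test of the difference between them was not made. The remaining Adcyap1r1 probe, A_44_P469809 at chr4:84254805-84254864 and paired with NM_133511, was well above background in control RNA on 2 of 12 arrays. At 5 min control RNA alone was well above background, on 1 array, and the PACAP38 value was lower by at least 1.33-fold. At 60 min PACAP38 RNA alone was, on 1 array, and its value was higher by at least 1.26-fold. Because the dim signals lay above the detection limit, these bounds equal the mean ratios, and the single arrays gave 0.622 and 0.906 at 5 min and 1.195 and 1.33 at 60 min. Under normexp and loess the ratios were 0.989 and 1.02. The 120 min fold was 1.39, made of 2.14 on the array with PACAP38 in Cy5 and 0.898 on the other, a gap wider than the fold itself.

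The VPAC receptors gave no usable reading. The Vipr1 signal was between 4.70 and 7.47 in control pools, and no array had it well above background in either RNA. The same held for both Vipr2 probes on all 24 channels. No fold is given for these genes, since both RNAs were below the limit at every time point.

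The alpha subunits were well measured and close to their controls. Gnas is read by 3 probes at a locus that makes several overlapping transcripts, so a probe does not tell them apart from the alpha subunit in full. Probe A_44_P1027101, paired with NM_001024823, had control signals of 6314, 4478, 6238, 6319, 11082 and 12519 and PACAP38 signals of 5575, 4982, 7088, 6295, 11954 and 15342. The brighter pools were those of 60 and 120 min in both conditions. The folds were 0.883, 1.11, 1.14, 0.996, 1.08 and 1.23, with 1 array each at 5 and 10 min because the spot on the other carried an outlier flag. At 120 min the arrays gave 1.19 and 1.26, and the slope was 0.06 ± 0.04 (SE) with a limma adjusted p of 0.299.

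Gnas probe A_44_P378484, paired with NM_001159656 and printed on 10 spots per array at chr3:165214907-165214966, gave folds of 0.980, 1.095, 0.977, 0.969, 1.02 and 1.15. Its control signal was lowest at 2470, had a median of 2856 and was highest at 4283. The slope was 0.03 ± 0.03 (SE) with a limma adjusted p of 0.562. The remaining Gnas probe was not well above background in control RNA on any array. For Gnaq, the subunit that feeds phospholipase C, control signals were between 106 and 165 and the folds were 0.957, 1.03, 0.866, 1.07, 1.09 and 1.18, with a slope of 0.07 ± 0.03 (SE) and a limma adjusted p of 0.234. At 120 min all 3 of these probes had a PACAP38 value above control on both arrays, by less than 1.3-fold, but with normexp and median centring the folds were 1.04 and 0.951 for Gnas and 0.995 for Gnaq, so the direction turned for 2 of 3. The 5 min fold of Gnas A_44_P1027101, from 1 array, went from 0.883 to 1.45 in the same way.

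Adcy6, a cyclase that calcium inhibits, held the lowest value of the well measured probes. On probe A_44_P107300, paired with NM_012821, the control signals at 5 to 120 min were 4570, 4421, 3428, 4672, 4172 and 5749, and the PACAP38 signals were 4840, 4449, 3347, 4193, 3780 and 3429. The 120 min control pool was the brightest of the 6 control pools and the 120 min PACAP38 pool the second lowest of its 6. The folds were 1.06, 1.01, 0.976, 0.898, 0.906 and 0.596. Both arrays had the 120 min value well under 1, with 0.549 for PACAP38 in Cy5 and 0.648 on the exchanged array, and neither reached the limit of 0.5. Of all probes well above background in control RNA on every array, 10.4% were as low or lower at 120 min, so the value is not a rare one at that time.

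The Adcy6 slope was -0.15 ± 0.04 (SE) per doubling of time, with a limma adjusted p of 0.0993. In minutes it was -0.39 ± 0.06 (SE) per hour on the log2 scale, with a limma adjusted p of 0.00894. With the slide as a block the slope was -0.27 ± 0.15 and the adjusted p 0.895. That fit called 0 of the 20265 probes, so its adjusted p decides nothing about this probe. Without the 120 min time point the slope was -0.07 ± 0.03 with an adjusted p of 0.383, so 1 time point carries most of it. The fit without 120 min also called 0 probes of the array. On the slide shared by the late time points the fold was 0.906 at 60 min and 0.596 at 120 min. The 120 min fold was 0.615 with normexp and loess and 0.528 with normexp and median centring, below 1 in each.

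The second Adcy6 probe, A_43_P11576, cannot be used to check the first. Its signal was well above background in control RNA on 1 of 12 arrays, and its arrays contradicted each other at all 6 time points, with folds between 2.61 and 3.403 when PACAP38 was in Cy5 and between 0.166 and 0.380 when it was in Cy3. Its only measured fold, 0.693 at 60 min, averages 2.89 and 0.166. The same pattern, with the dyes the other way, was seen for Rapgef2 probe A_44_P173218, with 0.235 to 0.447 in Cy5 and 1.54 to 3.26 in Cy3, and it was 2-fold or more in opposite directions at 5 of 6 time points. On the whole array 4.43% of probes were 2-fold or more in opposite directions at 4 or more time points.

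**Figure D3:**
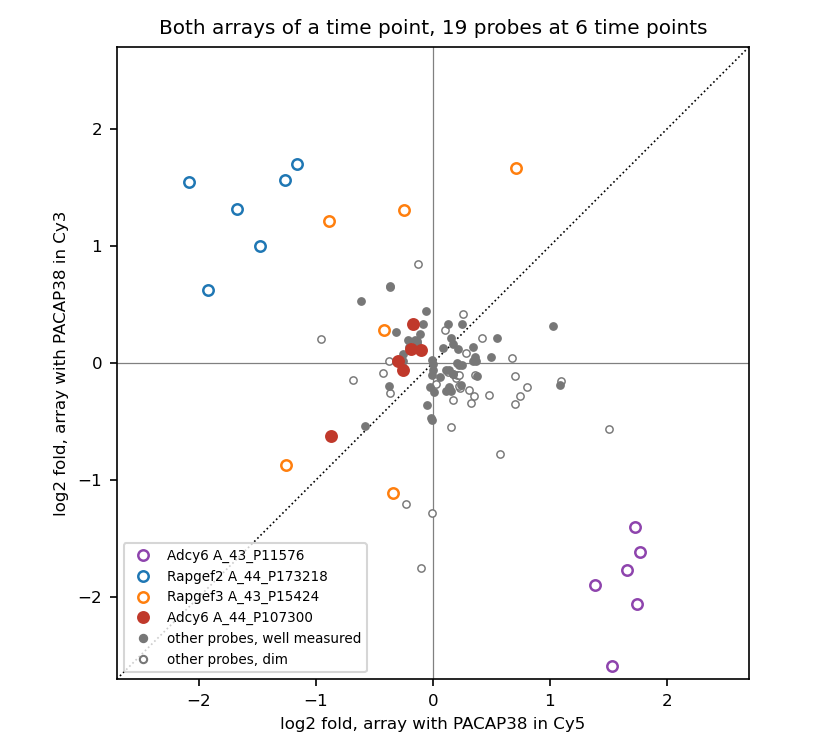
Log2 fold of PACAP38 over control on the array with PACAP38 in Cy5 (x axis) against that on the dye-exchanged array (y axis), 1 point per probe and time point for the 19 probes, filled where control RNA was well above background on every array; the dotted line marks equal values. The purple Adcy6 and blue Rapgef2 probes sit in the opposite corners where the arrays contradict each other, and 1 red Adcy6 A_44_P107300 point, that of 120 min, lies well down the line of equal values.

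Adcy3, a cyclase known from olfactory neurons, was near the lower end of what the array reads, with control signals of 58.7, 47.2, 52.6, 58.6, 75.2 and 96.7. The folds were 1.09, 1.11, 0.971, 1.02, 0.983 and 1.14, and both arrays pointed in opposite directions at 6 of 6 time points. Its slope was 0.00 ± 0.03 (SE) with a limma adjusted p of 0.997.

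Adcy9, a widely expressed cyclase, is read by 3 probes, all of them above background in control RNA on every array. The brightest, A_44_P1009001 at chr10:11519532-11519591, gave folds of 1.01, 1.08, 0.921, 1.03, 1.14 and 1.03 on control signals between 1981 and 3232. Probe A_43_P22744 is named Adcy9 on the array but has no position on rn4. It is paired with a transcript other than that of the other Adcy9 probes, and that transcript was not matched to a RefSeq symbol. This probe gave 1.14, 1.12, 0.678, 0.819, 1.12 and 1.17. Its 15 min value was low on both arrays, 0.669 and 0.688, and was 0.838 with normexp and loess, while the other Adcy9 probes had 0.921 and 0.844 at that time. Probe A_44_P135944 gave 1.02, 0.973, 0.844, 0.924, 0.981 and 1.37, and its 120 min value was 2.12 with PACAP38 in Cy5 and 0.880 in Cy3. The limma adjusted p of the slopes was 0.703, 0.836 and 0.357. All 3 probes had a mean fold below 1 at 15 min, but for A_44_P1009001 the arrays disagreed in direction there and normexp with median centring gave 1.098.

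The Rap exchange factors could not be followed. Rapgef3 control signals were between 11.4 and 25.6 and were not well above background on any array. No fold is given for it. Rapgef2 had a measured fold at 30 min only, 0.638 on probe A_44_P173218, and this value averages 0.264 and 1.54. No other mean fold of the gene is given, because its RNAs were not well above background or, where 1 of them was, the difference did not exceed the limit of detection, and the ratios of its single arrays above show only their direction.

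The rest of the pathway was taken from 9 lists of other genes, with 92 of 94 genes on the array. Control RNA was well above background on all 12 arrays for the brightest probe of 41 genes, and on no array for any probe of 35. Among the related class B receptors only Gcgr, Pth1r and Sctr, the receptors for glucagon, parathyroid hormone and secretin by name, were read on all 12 arrays, and 8 of 12 on none. Of the other cyclases and cyclase-associated proteins, Adcy7 and Cap1 were read on all 12 arrays. Adcy1, Adcy2, Adcy4, Adcy10 and Cap2 were read on none, so that Adcy7 joins Adcy3, Adcy6 and Adcy9 as the cyclases with a steady reading. Rapgef4, which encodes Epac2, was on no array above background, as was Rapgef3, while Rap1a and Rap1b, the small GTPases these factors act on, were read on all 12.

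**Figure D4:**
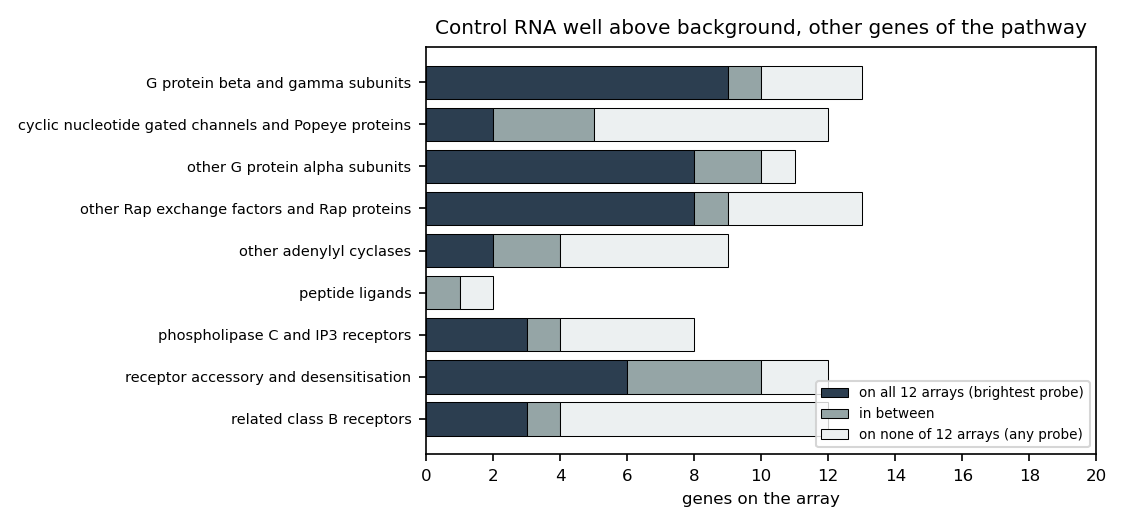
Number of genes of each list of other pathway genes on the array, split by whether control RNA was well above background on all 12 arrays for the brightest probe (dark), on none for any probe (light) or in between (grey). Alpha subunits, beta and gamma subunits and Rap proteins were mostly read on all 12 arrays, and class B receptors and cyclic nucleotide gated channels mostly on none.

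Of these 92 genes, 0 were counted from 5 to 60 min, and at 120 min 2 were counted as higher and 0 as lower. Over all probes 1.95% were counted as higher at that time, a share of probes that cannot be set directly against a count of genes. The 2 genes came from 5 counted probes among the 146 probes of these genes, 4 of them for 1 gene. Both were the peptide ligands. Adcyap1, which encodes PACAP itself, was not well above background in control RNA on any array. At 120 min its 4 probes had control signals of 30.2, 7.95, 8.75 and 8.50 and PACAP38 signals of 216, 79.1, 79.0 and 74.6, which is at least 6.30, 2.76, 2.74 and 2.60-fold higher as a mean over both arrays. For the first probe the single arrays gave 4.31 and 11.8, so 1 of them lay below the mean bound. Both arrays had the same direction for each probe, and at 60 min neither RNA was well above background. Vip, which encodes the sister peptide, had signals of 4.91 in control and 24.02 in PACAP38 at 60 min, at least 1.54-fold higher, and of 35.7 and 597 at 120 min. The 120 min fold was 16.7, made of 27.9 and 10.0 on its arrays, and 2.41 with normexp and loess. Vip control RNA was well above background on 1 of 12 arrays only, at 120 min, and its median control signal was 7.39. The fold of 16.7 thus rests on a control value near the floor. With normexp and loess the Adcyap1 folds at 120 min were 1.34, 1.28, 1.24 and 1.28.

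**Figure D5:**
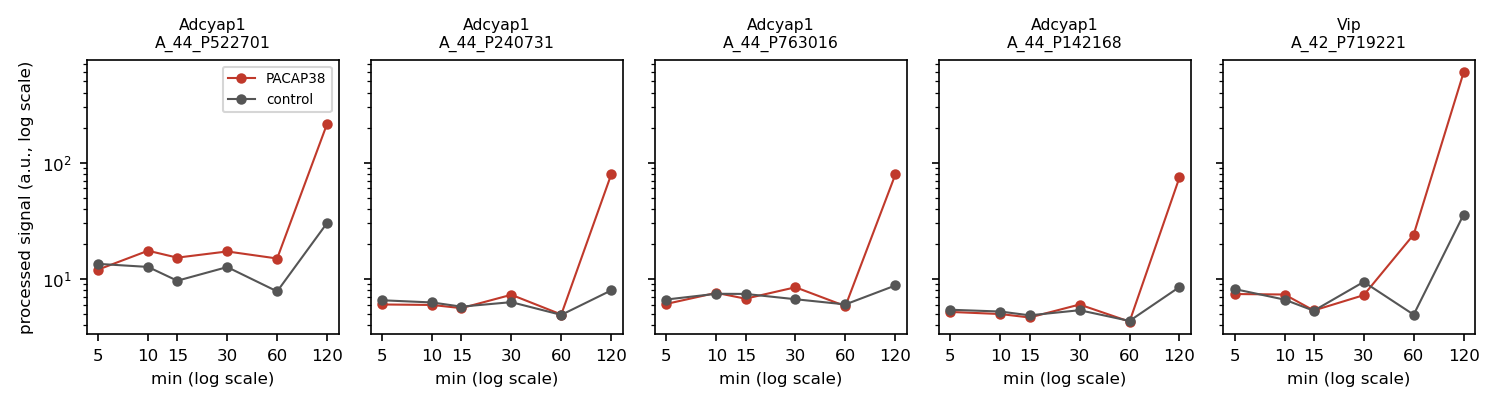
Processed signal (arbitrary units, log scale) of the 4 Adcyap1 probes and the Vip probe against time (min, log scale), in PACAP38 pools (red) and control pools (grey), 1 pool per point. The PACAP38 pool at 120 min stands at 74.6 to 216 for Adcyap1 and at 597 for Vip, above the control pools of each probe.

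In the limma fit 82 probes of 55 of these genes entered, and none passed for the slope on log2 time or for the mean. In minutes 11 probes of 8 genes were called higher and 12 probes of 10 genes lower, beside 10.2% and 16.1% of all probes. The higher calls hold the 4 Adcyap1 probes and Vip, which entered the fit only through the late PACAP38 pools in which they are high, so their slopes are not read as a result. They also hold the alpha subunit Gna13, on 1 of its 2 probes, at 0.51 ± 0.05 (SE) per hour on the log2 scale, with an adjusted p of 0.00339. The alpha subunits did not share a direction. Gnai2 was called higher too, at 0.32 per hour, while Gna12 and Gnaz were called lower, at -0.26 and -0.42. The calls that were lower included all 3 Grk5 probes in the fit, from a kinase that phosphorylates activated receptors. They also included Ric8a, a chaperone of alpha subunits, at -0.46 ± 0.07 with an adjusted p of 0.00817. This was 1 of 2 Ric8a probes, and its control RNA was well above background on 8 of 12 arrays, with a median signal of 29.8. Gna13, Gnai2, Gna12, Gnaz, Grk5 and Ric8a were named after their values were seen. Since no gene of the receptor, cyclase and effector list was counted, no genes with a like course were sought.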

How the data were processed

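Each of the 12 arrays (Agilent whole rat genome, 4x44K, 45018 spots, 1639 of them controls) holds a control and a PACAP38 pool in 2 colours, and groups, times and dyes were taken from the labels. The intensity values used, as deposited, are the processed Cy3 and Cy5 signals that the authors made with Agilent Feature Extraction, background-subtracted and LOWESS dye-normalized. The submitters' notes give version 11.0.1.1 and the file headers 12.0.3.1. The deposited p-value of a spot came from the same software. The mean and background intensity columns, as deposited, are not normalized and served the normexp alternatives (offset 50). The offset is added to both channels and draws the ratios of dim spots toward 1. The deposited table of log10 ratios of Cy5 over Cy3 matched the log ratios of the processed signals (r = 1) and served as an alternative.

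Control spots and 197 to 267 outlier spots per array were left out, spots of a probe were averaged on the log2 scale, and log2 folds were turned to PACAP38 over control and averaged over both arrays. A fold is given where each RNA was well above background on at least 1 array. Where only 1 RNA was, the brighter RNA is set against the limit of detection after Aquantile scaling, per channel, and "at least" is written. These bounds are open to dye bias beyond what the exchange cancels. Where neither was, no fold is given. The gene's value is that of its brightest probe. The text names the 10 listed genes with all probes, other pathway genes counted at any time point, and pathway genes and markers given as examples of a list, which were chosen after their values were seen. The members, pathway lists and marker lists were chosen with earlier results of these data known. One list of markers of another cell type is not reported here.

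Slopes and means over the 6 time points were fitted with limma 3.58.1 in R 4.3.3, with Benjamini-Hochberg adjustment over all probes tested, and were tested beforehand on simulated data in which 200 of 20265 probes changed. In these simulations 3.07% of the slope calls at 0.5 were false. The spread in these fits is that between time points. Pairs of time points share a slide (5 and 10, 15 and 30, 60 and 120 min), so late and early times also differ in slide. Folds, counts and plots were made with Python 3.11.15 (numpy 2.4.6, pandas 2.3.3 and matplotlib 3.10.9). Alternatives were other fold limits, background correction, centring, filters, the slide as a block, time in minutes, and leaving out 1 dye orientation or time point. The number of arrays limits the precision.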

Additional observations from a re-analysis of the deposited data

Results flagged for a closer look

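In 20 sets of 6 pools, the control and the PACAP38 pools of the 10 well measured probes, 2 held a pool far from the others, and chance alone gives about 1 in 20. The control signal of the brightest Adcyap1r1 probe (A_42_P726223) was 13152 in the 120 min pool against 9501 in the nearest pool, a gap of 0.661 of the range. The control signal of Adcy9 probe A_43_P22744 was 356.1 in the 120 min pool against 280.1 in the nearest, a gap of 0.761 of the range. The PACAP38 pools of 120 min on the same arrays were at 13285 and 418. After scaling between arrays the highest Adcyap1r1 control pool was 1.24 times the lowest, against 1.72 times before, and for the Adcy9 probe this was 1.39 times both before and after.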

How the results depend on the processing

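The count of 0 probes of the 10 genes changed as follows. With a fold limit of 1.5 it was 1 at 120 min, Adcy6 A_44_P107300, lower. Without replicate 1 or without replicate 2, that is with 1 dye orientation alone, it was 0 to 1 at 5 min, 0 to 1 at 10 min, 1 to 2 at 60 min and 0 to 2 at 120 min, and the probes were Rapgef3 A_43_P15424, Rapgef2 A_44_P173218, Adcy6 A_43_P11576, Adcyap1r1 A_44_P827919 and Adcy9 A_44_P135944. The slope, with 0 probes called by limma, had 1 with only probes above background in both channels on all arrays (Adcyap1r1 A_44_P827919, adjusted p 0.0386) and 2 in minutes. Over all probes the slope called 147 and, in minutes, 5337, with that stricter filter 976, with normexp and loess 27, with normexp and median centring 1, with all probes kept 0 (6563 at an unadjusted p under 0.05), with the slide as a block 0 (951), with 1 orientation 3 or 29, without 5 min 153, and without any other time point 0 or 1. The mean, with 0 probes called, had 3 without replicate 1 and 2 without replicate 2. Over all probes the mean called 0 (1851 unadjusted), with the slide as a block 126, with 1 orientation 3538 or 2310, and without 5 min 15. Means that reversed are given on the log2 scale with the limma adjusted p. They were 1.29 for Rapgef2 A_44_P173218 in Cy3 alone (adjusted p 0.0022) and 1.64 for Adcy6 A_43_P11576 in Cy5 alone (adjusted p 3.54e-05). Both are probes whose sign turns with the dye. No paired analysis was possible because replicate numbers mark the dye orientation of the same pools. Signal over background limits Vipr1, Vipr2, Rapgef2 and Rapgef3.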
